A study of Mus musculus with 7 samples.

Results

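The genes described here encode the histone methylation, Polycomb and heterochromatin machinery of mini-oocytes, oocyte-like cells that were induced from mouse embryonic stem cells (mESCs). They were chosen by symbol, and all 43 were found among the 55364 genes of the expression table. RNA was measured by RNA-seq in 7 libraries as TPM, a read count per length of exon that adds up to an equal total in each library. Both lines derived from female BVSC H18 mESCs of a 129/C57BL6 hybrid strain. The 4F line carried Nobox, Figla, Tbpl2 and Lhx8, and the 8F line carried these plus Stat3, Dynll1, Sub1 and Sohlh1. Each factor was fused to a domain that destabilises the protein unless the small molecule Shield-1 is present. The paper also names an Npm2-mCherry reporter for the 8F line and does not name it for the 4F line. The added factors and other differences between the lines cannot be told apart. All groups were kept in S10 medium with stem cell factor and the ROCK inhibitor Y-27632, and Shield-1 was left out of fresh medium from day 12. There were 2 libraries of 4F-mini-oocytes at day 7, 3 of 4F-mini-oocytes at day 21 and 2 of 8F-mini-oocytes at day 21. A day 7 library was made from 1000 pooled cells and a day 21 library from 10, so the day, the withdrawal of Shield-1 and the pool size cannot be told apart. The sources do not say whether replicates came from separate cultures, so p-values measure only the spread between these libraries.

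Histone lysine methylation marks active and silent chromatin. Methylation of H3K4 and H3K36 is found at transcribed genes, methylation of H3K9 is bound by HP1 proteins in heterochromatin, and Polycomb repressive complex 2 (PRC2) methylates H3K27 while PRC1 ubiquitinates histone H2A. In growing mouse oocytes these systems set up the maternal chromatin state, in which KDM1B removes H3K4 methylation to allow DNA methylation at imprinted genes and SETD2-dependent H3K36 methylation guides DNA methylation.

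The promoters of the members were rich in CpG dinucleotides. RefSeq (GRCm38.p6) promoters were at hand for 33 of the 43 genes, 42 promoters in all, and the 250 bases before each start held a median of 23 CpG, against 6 over all 32851 promoters. At least 10 CpG were found in 95.2% of the members' promoters and in 37.8% of all promoters. The E-box CANNTG, a motif bound by bHLH factors such as FIGLA, was present on either strand in 61.9% of the members' promoters and in 66.2% of all. The homeobox motifs TAATTG and TAATTA were in 0 of the 42, against 7.17% and 4.84% of all promoters, and TATAAA was in 1 (2.38% against 12.4%). A match or its absence is a description of these letters only. Upstream windows of 3 genes that were higher and 1 that was lower in 4F at day 21 than at day 7 are shown 5′ to 3′. Each CpG is in capitals. These differences held under every setting tried, and the genes were picked after their values were seen. Each window lies outside the annotated span of its own gene, and overlap with other genes was not checked.
Suz12 (chr11:79992856-79993105, plus strand, 37 CpG, 0 E-boxes): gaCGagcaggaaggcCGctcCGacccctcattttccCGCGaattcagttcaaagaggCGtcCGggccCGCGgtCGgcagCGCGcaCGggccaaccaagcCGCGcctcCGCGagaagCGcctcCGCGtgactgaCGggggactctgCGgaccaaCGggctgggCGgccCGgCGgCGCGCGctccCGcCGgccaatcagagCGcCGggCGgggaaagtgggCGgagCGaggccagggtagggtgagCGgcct
Pcgf6 (chr19:47050907-47051156, minus strand, 14 CpG, 1 E-box): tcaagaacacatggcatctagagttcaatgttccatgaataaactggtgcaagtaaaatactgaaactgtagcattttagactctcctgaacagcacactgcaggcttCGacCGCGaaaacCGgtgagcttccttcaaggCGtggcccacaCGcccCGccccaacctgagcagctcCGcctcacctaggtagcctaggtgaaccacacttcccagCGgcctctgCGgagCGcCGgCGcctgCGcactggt
Kdm1b (chr13:47043249-47043498, plus strand, 22 CpG, 1 E-box): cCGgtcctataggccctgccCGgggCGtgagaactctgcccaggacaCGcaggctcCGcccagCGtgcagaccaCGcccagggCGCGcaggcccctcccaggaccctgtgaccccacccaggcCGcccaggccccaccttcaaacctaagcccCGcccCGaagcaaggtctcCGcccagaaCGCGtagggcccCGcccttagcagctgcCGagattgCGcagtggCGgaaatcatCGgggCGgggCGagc
Cbx5 (chr15:103239853-103240102, minus strand, 22 CpG, 2 E-boxes): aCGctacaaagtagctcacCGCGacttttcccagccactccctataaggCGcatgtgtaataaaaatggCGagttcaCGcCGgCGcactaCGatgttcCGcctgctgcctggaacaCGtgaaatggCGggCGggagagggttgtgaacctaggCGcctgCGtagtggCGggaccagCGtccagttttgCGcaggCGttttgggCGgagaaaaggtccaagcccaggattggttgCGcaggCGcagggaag

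The libraries held 9051761 to 17190271 reads on genes, recovered from the steps in low TPM values, and the member value resting on the fewest reads had 31 (Ring1). Summed TPM of 10 oocyte markers (Gdf9, Zp3 and others) was 5634 to 7288 at day 7, 27814 to 30600 in 4F at day 21 and 23316 to 23494 in 8F. Between 8F at day 21 and 4F at day 7, 8 of the 10 were called higher and Dazl lower. Dazl was at 58.5 and 39.8 TPM at day 7, 67.8, 103 and 47.5 in 4F at day 21, and 11.9 and 4.77 in 8F. Ddx4 was at 104 and 129, then 193, 186 and 237, then 107 and 111 TPM. Other sums moved with the day as well. Proliferation genes (6) summed to 276 to 314 TPM at day 7, 657 to 701 in 4F at day 21 and 683 to 716 in 8F. These are RNA levels, and cell division was not tested. Pluripotent stem cell markers (9) summed to 61.1 to 81.9, 224 to 345 and 123 to 164 TPM. At day 21 most of this was Pou5f1, which oocytes also express. Nanog was at most 0.940 TPM and Fgf4 was at 0 in every library. Esrrb was at 3.92 and 12.3 TPM at day 7, 28.3 to 44.3 in 4F at day 21 and 27.6 to 42.4 in 8F. Zfp42 went the other way, from 20.6 and 21.9 TPM to 6.35 to 8.75 in 4F and 4.42 to 4.93 in 8F. Klf4 was at 12.2 to 26.5 TPM in all libraries. Trophoblast markers (5) summed to 22.6 to 75.1 TPM at day 7 and at most 3.17 at day 21, with Cdx2 below 1 TPM throughout. Most of the day 7 sum was Hand1 (12.0 and 63.6 TPM) and Gata3 (8.30 and 10.6), both below 1 TPM at day 21. Granulosa cell markers (7) summed to 7.37 to 11.6, 2.50 to 6.73 and 6.66 to 7.48 TPM, with Inha at 0. Kitl made up most of the day 7 sum, at 11.0 and 7.03 TPM, and was at 1.94 to 4.87 at day 21. Of 3 endoderm markers, Gata4 lay behind sums of 1.57 to 3.11, 32.4 to 46.3 and 88.2 to 95.5 TPM, and Gata6 and Sox17 were below 1 TPM. The part of these shifts in the results was not tested, and in bulk libraries fewer cells of a type and less RNA per cell cannot be told apart.

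All 43 members were expressed. Each had at least 1 TPM in every library, 36 had at least 10, and the median of their mean levels was 78.6 TPM. Levels ran from 2.28 TPM (Ring1, in a 4F library at day 21) to 1557 TPM (Kdm1b, also in 4F at day 21). Kdm1b encodes an oocyte H3K4 demethylase and ranked 44 to 104 among all genes, and the next member by rank, Setd2, was at 479 to 1061.

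**Figure D1:**
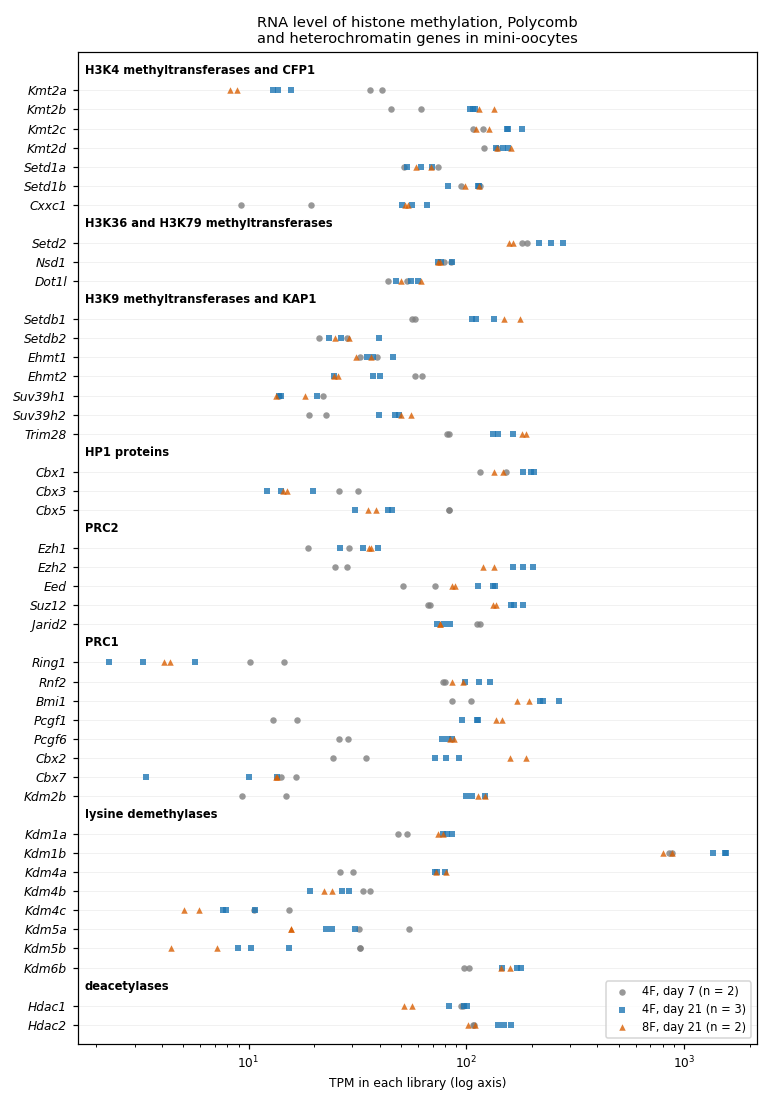
RNA level of each of the 43 genes, grouped by role, as TPM on a log axis. Each symbol is 1 library (circles 4F at day 7, squares 4F at day 21, triangles 8F at day 21), and Kdm1b lies far to the right of all other members, while Ezh2, Pcgf1 and Kdm2b have wide gaps between the day 7 and the day 21 libraries.

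The first comparison asked how the machinery of 4F-mini-oocytes at day 21 differed from that at day 7. The largest differences were in the Polycomb genes Kdm2b, Pcgf1 and Ezh2, which rose by 2.74 to 3.10 on the log2 scale. Bmi1, Pcgf6 and Cbx2 of PRC1 and Suz12 and Eed of PRC2 rose with them. Outside Polycomb, the largest rises were those of Cxxc1 (2.01) and Kdm4a (1.38). Ring1, also of PRC1, fell, as did Kdm5b, Kmt2a and Cbx5, by 1.06 to 1.54. Jarid2 of PRC2 fell too (-0.53). Of 43 members tested, 22 rose and 7 fell at FDR 0.05 (limma on log2(TPM + 1), Benjamini-Hochberg over 21780 genes). That is 67.4% of the members, against 40.6% of all genes tested (25.3% higher, 15.3% lower) and 51.8% of the genes with at least 5 TPM in 2 libraries. The groups did not overlap for 22 higher and 10 lower members, while 33.8% of all genes were higher and 22.9% lower without overlap. Of the markers, 9 of 10 oocyte genes and 6 of 6 proliferation genes rose as well. The paper reports that proliferation stopped soon after induction. Cell division was not tested here, so the rise of these transcripts is no measure of it.

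The balance between directions depended on how the libraries were scaled. The median log2 difference of all genes tested was 0.17 in the deposited TPM and that of the members 0.46. Relative to the median gene, the rises of Kdm2b, Pcgf1 and Ezh2 were 2.94, 2.61 and 2.57, and the value of Kmt2a was -1.56. With median-of-ratios rescaling the medians were -0.06 and 0.11 and the calls 15 higher and 11 lower. With quantile normalization they were 0.04 and -0.11, with 11 higher and 14 lower. With voom on recovered reads they were -0.32 and -0.08, with 13 higher and 16 lower, and with voom on median-of-ratios library sizes 16 members were higher and 13 lower. Rescaling over genes of at least 300 exonic bases gave 17 higher and 10 lower. Under all 20 alternatives, leaving out each library in turn included, 11 members were called higher (Cxxc1, Suv39h2, Ezh2, Suz12, Bmi1, Pcgf1, Pcgf6, Cbx2, Kdm2b, Kdm1b and Kdm4a) and 2 lower (Kmt2a and Cbx5). Of the other calls, that of Setd2 was made in 4 alternatives, those of Cbx1 and Rnf2 in 9, those of Kmt2c and Cbx3 in 11, that of Ring1 in 12 and that of Hdac2 in 13, and the other 9 were made in 15 to 19.

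**Figure D2:**
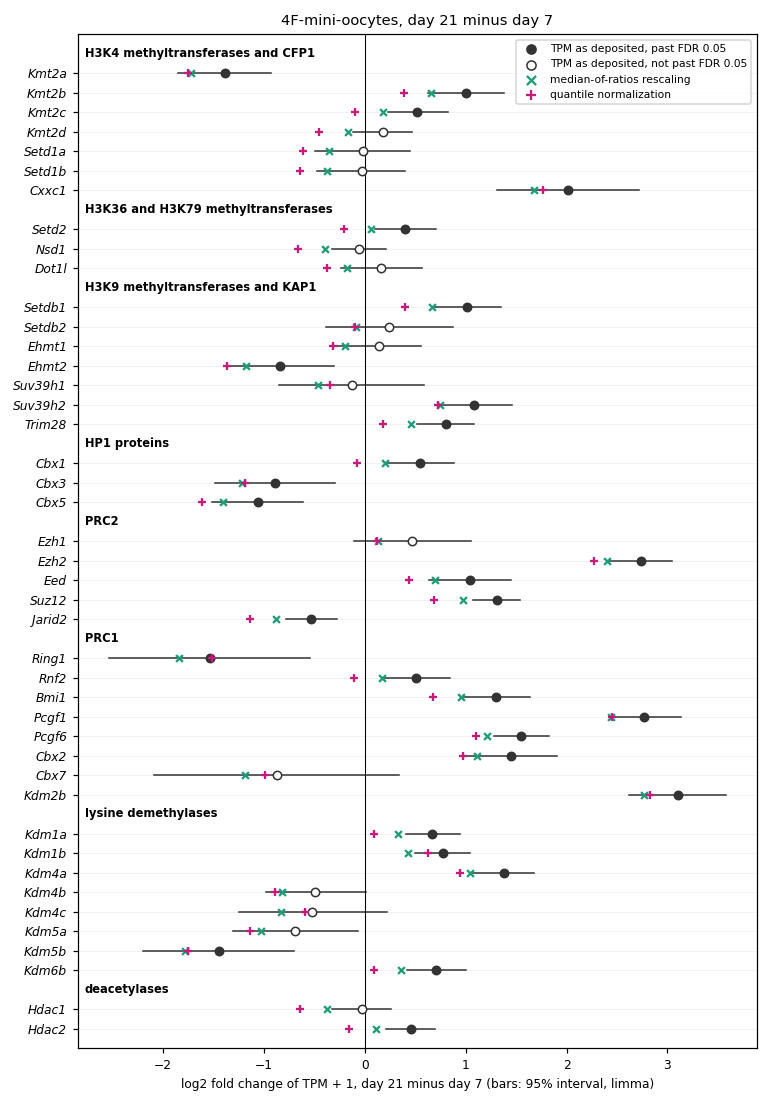
Log2 fold change of TPM + 1 for each member, 4F at day 21 minus 4F at day 7, with 95% intervals from limma; filled circles are past FDR 0.05, and crosses and plus signs give the value after median-of-ratios rescaling and quantile normalization. Both shift most values to the left, so that Kmt2c, Setd2, Cbx1, Rnf2 and Hdac2 lie below 0 after quantile normalization, while Ezh2, Pcgf1 and Kdm2b stay above 2.

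PRC2 consists of a methyltransferase, EZH1 or EZH2, with EED and SUZ12, and JARID2 is an accessory subunit that helps to recruit it. Ezh2 was at 28.3 and 24.9 TPM at day 7, 203, 182 and 164 in 4F at day 21, and 119 and 134 in 8F. Every day 21 library was above both day 7 libraries, and the rise in 4F was 2.74 on the log2 scale (SE 0.133, adjusted p = 6e-05, limma). Suz12 was at 68.4 and 66.9, then 182, 161 and 165, then 137 and 133 TPM, a rise of 1.31 (SE 0.0982, adjusted p = 0.00019, limma). Eed, which binds the methylated histone, was at 51.4 and 72.1, then 113, 132 and 136, then 88.6 and 86.0 TPM. Its rise of 1.04 (SE 0.167, adjusted p = 0.00331, limma) held in 18 of 20 alternatives. Jarid2 went the other way, from 116 and 112 TPM at day 7 to 78.8, 83.9 and 73.1 in 4F and 75.6 and 76.0 in 8F, a fall of 0.53 in 4F (SE 0.105, adjusted p = 0.00745, limma). Ezh1, the other methyltransferase, was at 29.0 and 18.8, then 33.5, 26.4 and 39.5, then 36.7 and 35.9 TPM. Its groups overlapped and its difference of 0.47 did not pass the test (95% interval -0.11 to 1.05). Summed over the 5 genes, PRC2 was at 293 and 295 TPM at day 7, 578 to 610 in 4F at day 21 and 457 to 465 in 8F.

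PRC1 has an E3 ligase core of RING1 or RNF2 with a PCGF protein, joined by a CBX protein in canonical complexes and by KDM2B, which binds CpG islands, in the complex with PCGF1. Of the 8 genes, 6 rose and 1 fell. Kdm2b had the largest rise of all members. It was at 14.9 and 9.32 TPM at day 7, 122, 100.2 and 106 in 4F at day 21, and 113 and 122 in 8F, a rise of 3.10 in 4F (SE 0.201, adjusted p = 0.000119, limma). Its partner Pcgf1 was at 16.7 and 13.0, then 112, 95.8 and 113, then 137 and 146 TPM, a rise of 2.77 (SE 0.148, adjusted p = 7.04e-05, limma). Both were far above day 7 in every library at day 21.

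Pcgf6, of a further variant PRC1, was at 26.0 and 28.6 TPM at day 7, 82.2, 77.6 and 86.3 in 4F at day 21, and 83.8 and 88.2 in 8F, a rise of 1.55 (SE 0.114, adjusted p = 0.000174, limma). Bmi1 (Pcgf4), of canonical PRC1, had the highest mean of the group over the 3 conditions, at 86.0 and 105, then 265, 217 and 225, then 195 and 171 TPM, a rise of 1.30 (SE 0.142, adjusted p = 0.000734, limma). Cbx2, whose protein compacts chromatin, was at 34.7 and 24.4, then 81.0, 71.6 and 92.7, then 159 and 187 TPM, a rise of 1.45 (SE 0.19, adjusted p = 0.00149, limma). For each of these genes the day 7 libraries were below all others. The E3 ligase genes diverged. Rnf2 was at 78.5 and 79.5, then 129, 114 and 98.6, then 86.2 and 96.1 TPM, a rise of 0.51 (SE 0.137, adjusted p = 0.0241, limma) that turned to -0.11 with quantile normalization and -0.02 with voom. Ring1 was at 14.6 and 10.2, then 5.66, 3.27 and 2.28, then 4.09 and 4.37 TPM, a fall of 1.54 (SE 0.416, adjusted p = 0.0251, limma) called in 12 of 20 alternatives. Cbx7, a CBX protein of pluripotent cells, was at 16.4 and 14.1, then 3.37, 13.4 and 10.0, then 13.4 and 13.5 TPM, and its difference of -0.87 did not pass the test (95% interval -2.09 to 0.34).

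Among the H3K4 methyltransferases, related genes moved in opposite directions. Kmt2a (MLL1) was at 40.8 and 36.02 TPM at day 7, 15.7, 12.9 and 13.6 in 4F at day 21, and 8.89 and 8.24 in 8F, a fall of 1.39 in 4F (SE 0.193, adjusted p = 0.0019, limma). Kmt2b (MLL2), an H3K4 methyltransferase required in mouse oocytes, was at 62.1 and 45.2, then 107, 104 and 110, then 115 and 134 TPM, a rise of 1.00 (SE 0.156, adjusted p = 0.00299, limma). Neither gene's day 7 libraries overlapped with the day 21 libraries. Cxxc1 encodes CFP1, which brings SETD1 complexes to unmethylated CpG. It was at 9.22 and 19.4, then 56.4, 50.7 and 65.9, then 54.0 and 52.1 TPM, a rise of 2.01 (SE 0.292, adjusted p = 0.00224, limma), although its day 7 libraries lay far apart. Kmt2c was at 107 and 119, then 181, 153 and 156, then 111 and 127 TPM, and its rise of 0.52 (SE 0.123, adjusted p = 0.0151, limma) turned to -0.10 with quantile normalization and -0.02 with voom. Kmt2d, with the highest mean of the group over the 3 conditions, was at 139 and 121, then 147, 137 and 156, then 138 and 160.5 TPM, and its difference of 0.18 did not pass the test. Setd1a and Setd1b, at 52.0 to 115 TPM in all libraries, differed by -0.02 and -0.03 with overlapping groups. Setd1a shares 52.3% of its exonic bases with 2 other gene models, on the same and on the opposite strand, so its reads may be split.

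Of the H3K36 and H3K79 methyltransferases, Setd2 alone passed the test. It was at 189 and 181 TPM at day 7, 279, 215 and 245 in 4F at day 21, and 157 and 164 in 8F. Its rise of 0.40 in 4F (SE 0.126, adjusted p = 0.0415, limma) was called in 4 of 20 alternatives and turned to -0.21 with quantile normalization and -0.13 with voom. Dot1l, the H3K79 methyltransferase, was at 53.5 and 43.8, then 60.0, 47.8 and 55.7, then 50.3 and 62.1 TPM, with overlapping groups. Nsd1, which makes H3K36me2, stayed between 74.0 and 85.9 TPM in all libraries and differed by -0.06 (95% interval -0.33 to 0.21).

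In the H3K9 group, genes of the KAP1 and SETDB1 axis rose. Setdb1, which methylates H3K9 at retrotransposons, was at 58.3 and 56.3 TPM at day 7, 111, 106 and 135 in 4F at day 21, and 149 and 176 in 8F, a rise of 1.01 in 4F (SE 0.14, adjusted p = 0.00184, limma). Trim28 (KAP1), the corepressor that brings SETDB1 to KRAB zinc finger proteins, was at 83.2 and 81.8, then 132, 140 and 163, then 180 and 187 TPM, a rise of 0.80 (SE 0.117, adjusted p = 0.00231, limma). In both genes the day 7 libraries lay below the 4F libraries at day 21 and these below the 8F libraries. Suv39h2 was at 22.7 and 19.0, then 49.0, 47.2 and 39.7, then 50.3 and 55.7 TPM, a rise of 1.08 (SE 0.159, adjusted p = 0.00235, limma). Its paralogue Suv39h1, the least abundant of the group, was at 22.0 and 13.8, then 20.6, 13.8 and 14.0, then 18.2 and 13.3 TPM. Those groups overlapped, the difference was -0.13 (95% interval -0.85 to 0.59), and 14.6% of the exonic bases of Suv39h1 are shared with an antisense gene. Ehmt2 (G9a), which makes H3K9me2, fell. It was at 62.7 and 57.9, then 24.6, 37.2 and 40.01, then 24.7 and 25.7 TPM, a fall of 0.84 (SE 0.221, adjusted p = 0.023, limma) called in 15 of 20 alternatives. Its partner Ehmt1 and Setdb2, at 21.0 to 46.0 TPM, had overlapping groups.

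The HP1 proteins bind methylated H3K9. Cbx5 (HP1α) was at 83.7 TPM in both day 7 libraries, 43.9, 30.8 and 45.5 in 4F at day 21, and 38.7 and 35.5 in 8F, a fall of 1.06 in 4F (SE 0.189, adjusted p = 0.00495, limma). Cbx3 (HP1γ) was at 26.0 and 31.9, then 14.0, 19.9 and 12.2, then 14.4 and 15.0 TPM, a fall of 0.89 (SE 0.249, adjusted p = 0.0282, limma) called in 11 of 20 alternatives. Its 8 named pseudogenes summed to 4.64 to 25.5 TPM, so the share of its reads lost to copies is uncertain. Cbx1 (HP1β) was the most abundant, at 116 and 153, then 182, 205 and 199, then 135 and 147 TPM, and its rise of 0.55 (SE 0.141, adjusted p = 0.0209, limma) turned to -0.08 with quantile normalization and -0.02 with voom.

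Lysine demethylases split in the same way. Kdm1b was at 855 and 878 TPM at day 7, 1557, 1356 and 1538 in 4F at day 21, and 799 and 878 in 8F, a rise of 0.77 in 4F (SE 0.113, adjusted p = 0.0023, limma). It was above every other member in all libraries, and highest in 4F at day 21. Kdm4a, an H3K9 and H3K36 demethylase, was at 26.3 and 30.3, then 80.2, 71.5 and 73.2, then 72.8 and 81.0 TPM, a rise of 1.38 (SE 0.127, adjusted p = 0.000382, limma). Kdm6b, an H3K27 demethylase, was at 97.3 and 103, then 179, 145 and 171, then 145 and 159 TPM, a rise of 0.71 (SE 0.122, adjusted p = 0.00443, limma). For both, every day 21 library was above day 7. Kdm1a (LSD1) was at 48.4 and 53.6, then 78.5, 81.4 and 86.0, then 73.9 and 78.2 TPM, a rise of 0.67 (SE 0.11, adjusted p = 0.00356, limma). Kdm5b, an H3K4 demethylase, fell by 1.45 (SE 0.312, adjusted p = 0.0106, limma), from 32.3 and 32.6 TPM to 8.97, 10.3 and 15.3 in 4F, and was at 4.42 and 7.19 in 8F. Kdm4c, with the lowest mean of the group over the 3 conditions, was at 15.4 and 10.6, then 7.66, 7.87 and 10.7, then 5.92 and 5.04 TPM. Its difference in 4F was -0.52 (95% interval -1.25 to 0.22). Kdm4b and Kdm5a were lower in every day 21 library of 4F, with differences of -0.49 and -0.69 that did not pass the test (95% intervals -0.98 to 0.01 and -1.31 to -0.07, adjusted p = 0.111 and 0.076, limma).

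Of the class I deacetylases, which remove histone acetylation in several corepressor complexes, Hdac2 was at 109 and 108 TPM at day 7, 149, 139 and 160 in 4F at day 21, and 102 and 109 in 8F. Its rise of 0.46 in 4F (SE 0.102, adjusted p = 0.0121, limma) turned to -0.16 with quantile normalization and -0.08 with voom. Hdac1 was at 96.8 and 94.7, then 101, 83.4 and 97.5, then 51.6 and 56.2 TPM, with a difference of -0.03 between the days in 4F (95% interval -0.33 to 0.26). Its named pseudogene was at 47.7 and 32.2, then 57.9, 59.0 and 77.5, then 18.7 and 20.9 TPM. Only unique reads were counted, so the share of Hdac1 reads lost to this copy is uncertain.

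Ratios between related genes within a library do not change when a library is multiplied by a single factor, though quantile normalization, which is no such factor, can change them. Groups of 2 and 3 allow no test below p = 0.2 with an exact permutation test, so the ratios are given as descriptions. Ezh2 to Ezh1 was 0.976 and 1.32 at day 7, 6.04, 6.91 and 4.15 in 4F at day 21, and 3.26 and 3.73 in 8F. The transcripts were thus near equal at day 7 and Ezh2 led in every day 21 library. Rnf2 to Ring1 was 5.37 and 7.83 at day 7 and 21.1 to 43.2 at day 21. Suv39h2 to Suv39h1 was 1.03 and 1.37 at day 7 and 2.38 to 4.18 at day 21, and Cbx2 to Cbx7 was 1.73 to 2.11 and 5.32 to 24.0. Cbx1 to Cbx5 was 1.39 and 1.83 at day 7 and 3.48 to 6.67 at day 21, and Cbx1 to Cbx3 was 4.47 to 4.79 and 9.31 to 16.4. Kdm1b to Kdm1a did not separate the days in 4F (16.4 and 17.7, then 16.7 to 19.8) and was lower in 8F (10.8 and 11.2). Hdac2 to Hdac1 was 1.12 and 1.14 at day 7, 1.47 to 1.67 in 4F at day 21 and 1.95 to 1.97 in 8F. It was ordered by group without overlap, as was a pair of ratios picked after the values were seen. Kmt2b to Kmt2a was 1.25 to 1.52 at day 7, 6.82 to 8.09 in 4F at day 21 and 12.9 to 16.3 in 8F, and Kdm4a to Kdm4c was 1.71 to 2.85, 6.85 to 10.5 and 12.3 to 16.1.

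**Figure D3:**
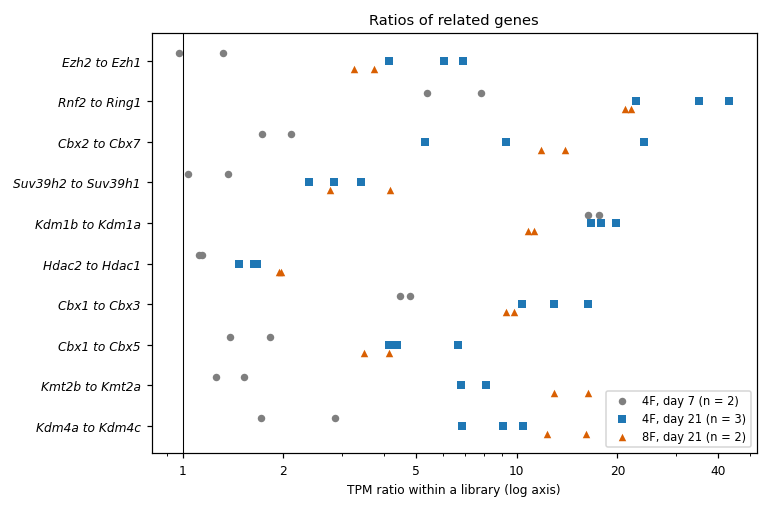
Ratio of the TPM of related genes within each library, on a log axis (circles 4F at day 7, squares 4F at day 21, triangles 8F at day 21). For every pair but Kdm1b to Kdm1a the day 7 libraries lie to the left of all day 21 libraries, and Ezh2 to Ezh1 crosses 1 between the day 7 libraries.

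The second comparison set 8F- against 4F-mini-oocytes at day 21. The labels name no batch. The methods name 2 sequencers with different read lengths without saying which libraries ran on each. An effect of the sequencer was thus not tested, either in this comparison or between the days. Few members differed. Cbx2 was higher in 8F, and Kdm1b, Hdac1, Setd2 and Hdac2 were lower, which is 11.6% of the 43 against 8.37% of all genes tested (3.95% higher, 4.41% lower). The median difference was -0.09 for the members and 0.06 for all genes. Of 10 oocyte markers, 4 were lower in 8F and 1 was higher, and their part in these results was not tested. An unadjusted p under 0.05 was found for 17 members and for 22.3% of all genes. None of the members was called by limma with the spread fitted without a trend (8 at an unadjusted p under 0.05), with a replicate block (16) or without either 8F library (9 without the first and 10 without the second), and 12 were called with array weights.

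Cbx2, at 81.0, 71.6 and 92.7 TPM in 4F and 159 and 187 in 8F, was higher by 1.07 (SE 0.19, adjusted p = 0.0231, limma) and was called in 14 of 20 alternatives. Kdm1b, at 1557, 1356 and 1538 against 799 and 878 TPM, was lower, with a difference of -0.82 (SE 0.113, adjusted p = 0.0118, limma), so that its 8F level overlapped that of 4F at day 7 (difference -0.05, 95% interval -0.35 to 0.25). Hdac1, at 101, 83.4 and 97.5 against 51.6 and 56.2 TPM, was lower, with a difference of -0.79 (SE 0.122, adjusted p = 0.0162, limma). Both were called in 16 of 20 alternatives. Hdac2 had a difference of -0.49 (SE 0.102, adjusted p = 0.0349, limma, 10 alternatives) and Setd2 of -0.61 (SE 0.126, adjusted p = 0.0356, limma, 9 alternatives). For these 5 genes the 4F and 8F libraries did not overlap, and leaving out either 8F library, which leaves a single one assumed to vary like the other groups, ended each call. The Hdac1 pseudogene was lower in 8F too.

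**Figure D4:**
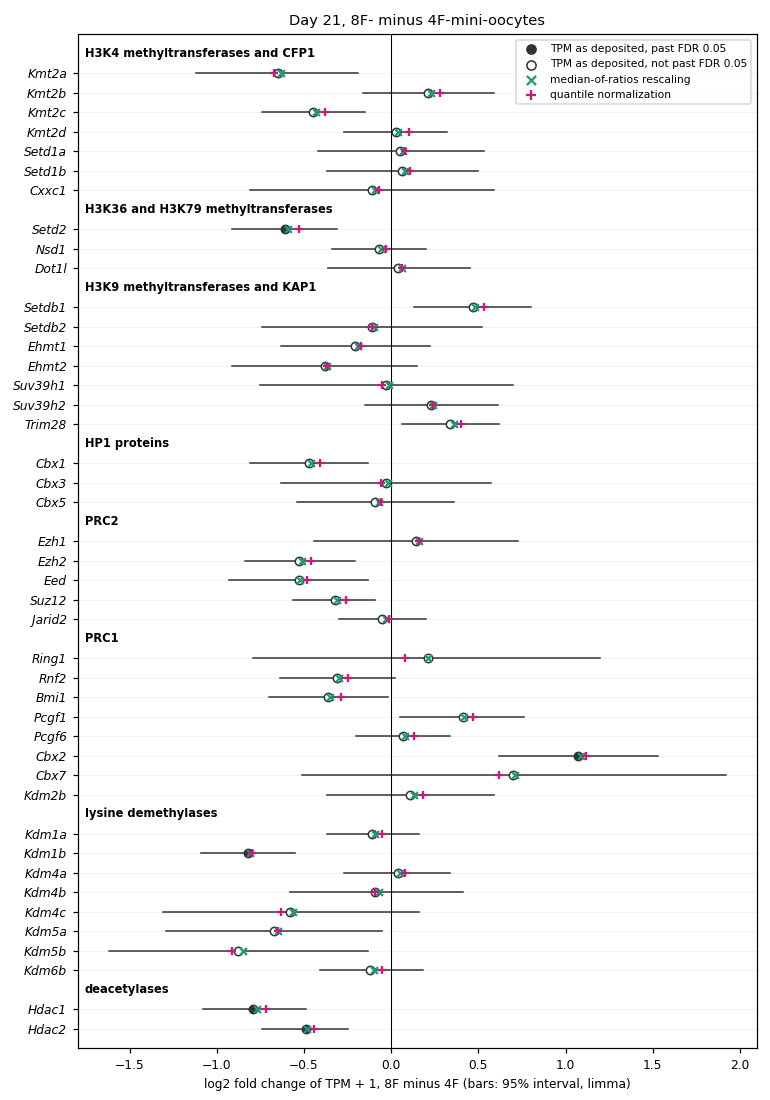
Log2 fold change of TPM + 1 for each member at day 21, 8F minus 4F, with 95% intervals from limma; filled circles are past FDR 0.05, and crosses and plus signs give the values after median-of-ratios rescaling and quantile normalization. Most intervals cross 0, Cbx2 lies at 1.07, and Kdm1b and Hdac1 lie near -0.8.

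For many other members the intervals left room for sizeable differences. Ezh2 (-0.53, 95% interval -0.84 to -0.21), Eed (-0.53, -0.93 to -0.13) and Suz12 (-0.32, -0.56 to -0.09) were lower in both 8F libraries than in any 4F library and did not pass the test after adjustment. Kdm5b (-0.88, -1.62 to -0.13) and Kmt2a (-0.65, -1.12 to -0.19), both lower at day 21 than at day 7 in 4F, were lower still in 8F and likewise did not pass. Setdb1 (0.47, 0.13 to 0.80) and Trim28 (0.34, 0.06 to 0.62) were higher in both 8F libraries, short of the threshold as well. In all, 6 members were higher and 16 lower without overlap, while 24.1% of all genes were higher and 19.8% lower without overlap. Intervals for Jarid2 (-0.30 to 0.20), Kdm1a (-0.37 to 0.16), Pcgf6 (-0.20 to 0.34) and Kmt2d (-0.27 to 0.32) stayed within 0.5 on either side of 0.

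Between 8F at day 21 and 4F at day 7, which shares its libraries with the other comparisons, 15 members were higher and 9 lower (55.8%, against 37.2% of all genes). Set beside the values of 4F at day 21 minus day 7, the log2 differences were 3.21 and 3.10 for Kdm2b, 3.18 and 2.77 for Pcgf1, 2.53 and 1.45 for Cbx2, and 2.21 and 2.74 for Ezh2. Among the genes that were lower, Kdm5b had -2.33 and -1.45 and Kmt2a -2.04 and -1.39. Hdac1 had -0.82 and -0.03, and Hdac2 -0.04 and 0.46.

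Other genes of these pathways, 66 with values, were partners and relatives of the members. Between the days in 4F 26 rose and 6 fell, 48.5% of the list against 40.6% of all genes and 51.8% of those with at least 5 TPM in 2 libraries. The largest rises were in Rbbp7, a histone-binding subunit of PRC2 and deacetylase complexes (2.90, SE 0.175, adjusted p = 9.59e-05, limma), the deacetylase scaffold Sin3a (2.32, SE 0.0957, adjusted p = 4.12e-05, limma) and Dpy30, a shared subunit of H3K4 methyltransferase complexes (2.21, SE 0.186, adjusted p = 0.000281, limma). Rbbp7 was at 175 and 261 TPM at day 7, 1611, 1509 and 1680 in 4F at day 21, and 1034 and 1124 in 8F. Every day 21 value was above that of all members in the same library. Among genes with at least 5 TPM in the higher group, the largest falls were in the H3K4 monomethyltransferase Setd7 (-3.56, SE 0.404, adjusted p = 0.000849, limma), in Pcgf2 (Mel18), the close relative of Bmi1 (-2.72, SE 0.597, adjusted p = 0.0115, limma), and in Mga, which belongs to the PRC1 variant with PCGF6 (-0.85, SE 0.176, adjusted p = 0.00934, limma). Pcgf2 was at 11.3 and 10.3 TPM at day 7, 0, 2.74 and 0.541 in 4F at day 21, and 0.292 and 0.552 in 8F, so that Bmi1 and Pcgf2 moved in opposite directions.

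Between 8F and 4F at day 21, 0 of these 66 genes were called higher and 4 lower with limma, 6.06% of the list against 8.37% of all genes. An unadjusted p under 0.05 was found for 17, against 22.3% of all genes. The 4 were Mbd3 (-0.98, SE 0.123, adjusted p = 0.00914, limma), Atrx (-0.93, SE 0.132, adjusted p = 0.0129, limma), Mga (-0.93, SE 0.176, adjusted p = 0.0281, limma) and Chd4 (-0.62, SE 0.115, adjusted p = 0.0269, limma). Mbd3 was at 254, 229 and 238 TPM in 4F and 116 and 127 in 8F, and Chd4 at 215, 184 and 227 in 4F and 134 and 137 in 8F. MBD3 and CHD4 are known as subunits of the NuRD deacetylase complex. Of other genes of that complex on this list, which leaves out the members, none passed the test. The differences were 0.73 for Mta2, -0.08 for Rbbp4, -0.67 for Mta1 and -0.57 for Rbbp7. Among the members, the deacetylase genes Hdac1 (-0.79) and Hdac2 (-0.49) were called lower in 8F, as given above. Without either 8F library, none of the 4 was called.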

How the data were processed

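Libraries were made with the SMART-seq Stranded kit. The authors trimmed reads with Trim Galore, mapped them to mm10 (HISAT2), took out rRNA with bedtools and used featureCounts on unique reads. Reads over several genes were divided between them, and no option for strand is given, so antisense overlaps cannot be told apart. The deposited values are TPM, and groups came from the labels.

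Of 55364 genes, the 21780 that reached 1 TPM in 2 or more of the 7 libraries entered a limma 3.58.1 model (R 4.3.3, trended eBayes, 3 groups in 1 fit) of log2(TPM + 1), which understates fold changes of low genes. Tests were two-sided, with Benjamini-Hochberg adjustment over all genes tested and an FDR of 0.05. The study tested counts with edgeR, and those counts were not used here. The members, other lists and tests were chosen with earlier results of these data known. A member is given singly if past FDR 0.05 in either of the first comparisons, or if highest or lowest in its role group. Of the other pathway genes, those given are the 3 with the largest called change in each direction between days and the 2 between lines, with at least 5 TPM in the higher group. Atrx and Chd4 between lines were added after their values were seen. Depth was recovered from TPM steps with GENCODE vM21 exon lengths (98.1% of genes matched with their version), and it covers counting error only.

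Alternatives were pseudocounts of 0.1 and 5, no filter or one of 5 TPM, median-of-ratios and quantile scaling, eBayes without trend, array weights, only the groups compared, a replicate block and each library left out. Voom fits of recovered reads and a rescaling over genes of at least 300 exonic bases were added after the data were seen.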

Additional observations from a re-analysis of the deposited data

How the results depend on the processing

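Between the days in 4F-mini-oocytes, the number of members called lay between 21 and 29 in all alternatives, against 29, and its split between directions moved. Higher calls numbered 11 under quantile normalization and 13 under voom with recovered reads, against 22. Lower calls, against 7, numbered 14 after quantile normalization, 11 after median-of-ratios rescaling, 16 with voom, 13 with voom on median-of-ratios library sizes, and 4 with array weights, with only the 2 groups compared and with the replicate block. With a library left out they numbered 3 to 6, and the lowest values were 3 without day 7 replicate 1 and 4 without day 7 replicate 2 or either 8F library. The median of the members minus that of all genes, 0.29, turned to -0.15 with quantile normalization, and the same difference for 8F at day 21 minus 4F at day 7, -0.16, was 0.02 with no filter.

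Between the days in 4F, the direction of 10 of the members described singly turned, in 23 fits in all. With quantile normalization and with voom the values were -0.10 and -0.02 for Kmt2c, -0.45 and -0.36 for Kmt2d, -0.21 and -0.13 for Setd2, -0.38 and -0.36 for Dot1l, -0.08 and -0.02 for Cbx1, -0.11 and -0.02 for Rnf2, and -0.16 and -0.08 for Hdac2, and voom gave -0.03 for Ezh1. With median-of-ratios rescaling, voom on median-of-ratios library sizes and the rescaling over longer genes they were -0.17, -0.16 and -0.12 for Kmt2d and -0.18, -0.17 and -0.13 for Dot1l. With a library left out, Suv39h1 ranged from -0.44 to 0.19 (the latter without day 7 replicate 1) and Hdac1 from -0.09 to 0.05 (the latter without 4F day 21 replicate 2). The cause was not tested.

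Between 8F and 4F at day 21, members called, against 5, numbered 3 with quantile normalization, 0 with eBayes without trend, 12 with array weights, 0 with the replicate block, and 9 with voom and with voom on median-of-ratios library sizes. With a library left out they numbered 0 to 6, with 0 without either 8F library and 2, 3 and 3 without 4F day 21 replicates 1, 2 and 3. Other pathway genes called, against 4, numbered 1 with eBayes without trend, 11 with array weights, 8 with only the 2 groups compared, 0 with the replicate block, and 12 with both voom fits. With a library left out they numbered 0 to 7, with 7 without either day 7 library, 2 without 4F day 21 replicate 1 and 0 without either 8F library.

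The replicate numbers come from the labels, which do not say that they mark a shared day. Deviations from group means correlated at under 0.1 between libraries of different groups. With 2 shared pairs, and deviations that mirror each other in groups of 2, this cannot decide whether the samples are paired. With the replicate block, members called were 23 between the days, 0 between the lines and 22 between 8F at day 21 and 4F at day 7. Groups of 2 or 3 libraries limit the precision. Every member had at least 31 reads behind each value, and the part of depth in the spread was not tested.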
